A study of Mus musculus with 4 samples.

Results

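The collagen gene family of the mouse was examined in maps of accessible chromatin from the developing limb. Members were the protein-coding genes whose symbol has the form Col, a number, a and a number, and 44 of 21887 protein-coding genes met that rule. For each gene, the accessible regions that overlapped the gene or lay within 20 kb of it were taken from a deposited list for each stage. This gave 445 of the 99356 regions of the E10.5 list and 144 of the 37413 regions of the E11.5 list.

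The samples were cells from fore- and hindlimbs of wild-type mouse embryos, in 2 groups of 2 replicates, E10.5 and E11.5 in days of embryonic age, as the sample titles have it. The protocol text calls the earlier stage E10. All 4 samples are labelled as wild type and as fore- and hindlimb together, no treatment is named, and the number of embryos in a replicate is not given in the sources used here. Accessibility was measured by ATAC-seq, in which the Tn5 transposase inserts adaptors into DNA that is not shielded by nucleosomes.

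Collagens are triple-helical proteins of the extracellular matrix. The fibrillar collagens assemble into the fibrils of bone, tendon, skin and cartilage, the FACIT collagens sit on the surface of those fibrils, and the network collagens include the sheet-forming type IV chains of basement membranes. Others form beaded filaments, anchor the skin to its basement membrane, or span the plasma membrane. In the limb bud, loosely packed mesenchyme comes before the cartilage models of the skeleton, and the cartilage collagens are known marks of that transition.

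Each list joins the 2 replicates of its stage, so no spread between replicates exists, no depth per sample is known, and no difference between the stages was tested. The value compared is the authors' signal of a region, which behaves as a total over the region. Because the scales of the lists are not known to match, a signal is read with its rank in its own list (rank 1 is the highest) or as a percentile, the share of that list's regions with a signal no higher. A region open in few cells and a region weakly open in many cannot be told apart in such bulk data. Among the markers of cell types located, promoter regions were found for 8 of 8 limb mesenchyme genes at E10.5 and 6 of 8 at E11.5, and for 1 of 4 and 0 of 4 genes of other organs. For other markers, with the E10.5 number before the E11.5 number, the counts were cartilage 2 and 2 of 3, bone and tendon 3 and 1 of 3, muscle precursors 4 and 1 of 4, ectoderm 3 and 1 of 4, endothelium 2 and 1 of 4, nerve and glia 3 and 1 of 3, and blood 1 and 1 of 4. Markers were searched only within 1 kb of the outer gene end, and other starts were not tried. The counts, such as the lack of a region for Tbx5 and Pitx1 at E11.5, hold for that start alone. Over all protein-coding genes, 66.3% had a promoter region in the E10.5 list and 59.9% in the E11.5 list. The part of these cells in the collagen regions was not tested.

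Most collagen promoters were accessible at E10.5. A promoter region, meaning a region that touched the 1 kb on either side of the gene's start site, was listed for 38 of 44 collagen genes (86.4%, 95% Wilson interval 73.3 to 93.6%), against 66.3% of all protein-coding genes. At E11.5 the count was 31 of 44 (70.5%, interval 55.8 to 81.8%), against 59.9% of all protein-coding genes. With a minimum −log10 p of 5, the E10.5 count was 30 and the E11.5 count was 19. The share over all protein-coding genes was not computed at that cut. Collagen genes are long, with a median of 114 kb against 17.3 kb, and among protein-coding genes of at least 10 kb the shares were 76.4% and 70.1%. The later share of the collagens therefore lies close to that of long genes.

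Both lists held a promoter region for 31 genes, and 7 had one at E10.5 and none at E11.5. That pattern was found in 6.71% of all protein-coding genes. The 7 genes were Col11a2, Col6a3, Col6a6, Col7a1, Col8a2, Col9a1 and Col17a1. No collagen gene had one at E11.5 alone, a pattern found in 0.385% of all genes. The remaining 6, Col6a4, Col6a5, Col10a1, Col20a1, Col22a1 and Col28a1, had none in either list, as had 33.4% of all genes. The E10.5 list is longer, and this bears on the counts. When it was cut to the 37413 regions with the highest signal, 29 collagen genes kept a promoter region at E10.5, as did 59.6% of all protein-coding genes. Then 2 collagen genes, Col6a3 and Col11a2, had one at E10.5 alone, and 4, Col4a3, Col4a4, Col4a6 and Col5a3, had one at E11.5 alone. Over all protein-coding genes the same 2 patterns held 531 and 600 genes. Cutting by the −log10 p-value instead left 26 collagen genes, beside 57.7% of all genes. That left Col6a3 with a promoter region at E10.5 alone and 6 genes, the 4 above with Col4a5 and Col15a1, with one at E11.5 alone, so the order of the counts turned under both cuts. Over all genes the numbers were 398 and 869.

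**Figure D1:**
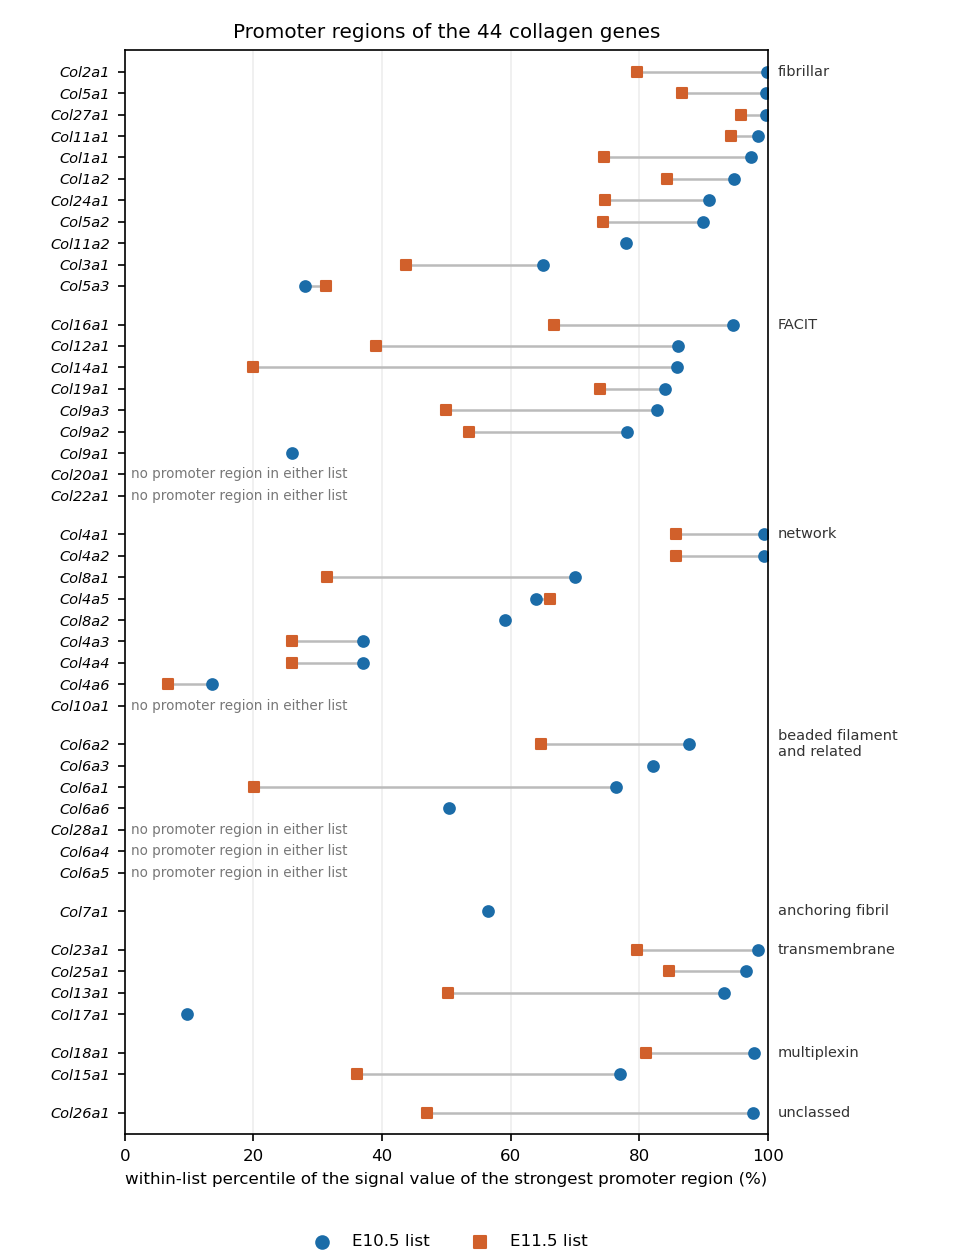
Within-list percentile of the signal value (horizontal axis, percent) of the strongest promoter region of each of the 44 collagen genes, grouped by class, in the E10.5 list (circles) and the E11.5 list (squares); a gene without a symbol had no promoter region in that list. In 29 of the 31 genes with both symbols the E11.5 square lies to the left of the E10.5 circle, and Col5a3 and Col4a5 are the other two.

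Relative to the rest of its own list, the strongest promoter region of a collagen gene was lower at E11.5. The median percentile over the genes that had one was 84.9 at E10.5 (n = 38) and 66.2 at E11.5 (n = 31), beside 89.4 and 81.7 over all protein-coding genes with one. Among the 31 genes present in both lists, 29 had a lower percentile at E11.5 (93.5%), and the median difference was -16.9 percentile points. Over the 12824 protein-coding genes present in both lists, 81.5% were lower and the median difference was -6.87. The lists differ in makeup, since the promoter regions of the whole genome sat at a median percentile of 87.8 in the earlier and 79.4 in the later list. The lists also differ in length, and the shift was not recomputed with lists of equal number. Because the later list is shorter, a smaller rank number there need not mean a higher standing. Rank numbers became smaller for Col3a1 (34681 and then 21064) and Col19a1 (15933 and then 9802). Their percentiles nevertheless dropped, from 65.1 to 43.7 and from 84.0 to 73.8. For other genes the rank number became larger, such as Col1a1 (2679 and then 9539) and Col14a1 (14025 and then 29971). The widest drops in percentile were those of Col14a1, from 85.9 to 19.9, and Col6a1, from 76.4 to 20.1. The strongest Col14a1 region of each list had its summit beyond the 1 kb window. A weaker E11.5 region of Col14a1, with a signal of 220, had its summit 589 bp downstream of the start. Both E11.5 regions lay within the wider E10.5 region, and the signal behaves as a total over the region. Col27a1 and Col11a1 moved least among the genes that dropped, by -3.79 and -4.19.

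Fibrillar collagens are the chains of the banded fibrils that give connective tissue its strength. All 11 had a promoter region at E10.5 (interval 74.1 to 100%) and 10 of 11 had one at E11.5 (interval 62.3 to 98.4%). Of the 33 other collagens, 27 had one at E10.5 (81.8%, interval 65.6 to 91.4%) and 21 at E11.5 (63.6%, interval 46.6 to 77.8%). With a minimum −log10 p of 5, the counts at E10.5 and E11.5 were 20 and 10 for other collagens, and 10 and 9 for fibrillar collagens. The intervals of the fibrillar and the other genes overlap at each stage. The median percentile of the strongest promoter region was 94.7 for fibrillar and 82.2 for other genes at E10.5, and 77.1 and 50.2 at E11.5.

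The Col2a1 promoter region, at the gene for the main collagen of cartilage, had the highest signal of any region near a collagen gene at E10.5. It spanned chr15:98001176-98006048 (mm10), a width of 4873 bp, with a signal of 19704 and rank 144 of 99356. At E11.5 the same stretch held 3 separate regions, whose summits lay at -0.05, 2.2 and 3.3 kb from the start site along the gene. The strongest of them had a signal of 2804 and rank 7644 of 37413. The first intron of Col2a1 is known to hold an enhancer bound by SOX9, the regulator of cartilage formation, and exon positions were not used here. Further inside the gene, regions with summits 11.7 and 14.4 kb downstream had signals of 6729 and 6505 at E10.5, and 1458 and 422 at E11.5. Col2a1 had 4 intragenic regions at E11.5, the most of any fibrillar gene, 2 of which lay within the single wide E10.5 promoter region.

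Type XI collagen regulates the thickness of cartilage fibrils, and Col11a1 and Col11a2 encode 2 of its chains. The Col11a1 promoter region had a signal of 10781 (rank 1499) at E10.5 and 5558.5 (rank 2134) at E11.5, which made it the collagen promoter region with the next highest E11.5 signal after Col27a1. The Col11a2 region had a signal of 2482 (rank 21985) at E10.5, and the E11.5 list had no region within 1 kb of its start. Col27a1, another fibrillar gene of cartilage, had a signal of 15818 (rank 366) at E10.5 and 6158 (rank 1557) at E11.5. Its summits lay 2.1 kb inside the outer start, and the RefSeq promoter table places the start itself 1.40 kb inside that end. Col24a1, a fibrillar gene of developing bone, had signals of 5179 (rank 9167) and 2234 (rank 9465).

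Type I collagen, the main protein of bone, tendon and skin, is built from the products of Col1a1 and Col1a2. The Col1a1 promoter region had a signal of 8950.4 (rank 2679) at E10.5 and 2213 (rank 9539) at E11.5. Upstream of it lay a region that was stronger at E10.5 and weaker at E11.5, at chr11:94927576-94931017, with its summit at -7.3 kb, a signal of 11750 (rank 1121) at E10.5 and 1812 (rank 11112) at E11.5. At Col1a2 the promoter region had 6913 (rank 5250) and 3452.5 (rank 5865). Strong regions also lay outside Col1a2 on either side, at -16.0 kb (8151 in the earlier and 1648 in the later list) and 52.3 kb downstream of the start (6896 and 2101). A far-upstream enhancer active in fibroblasts is known for Col1a2, and whether it is this region was not tested. Col1a2 had no intragenic region in either list.

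**Figure D2:**
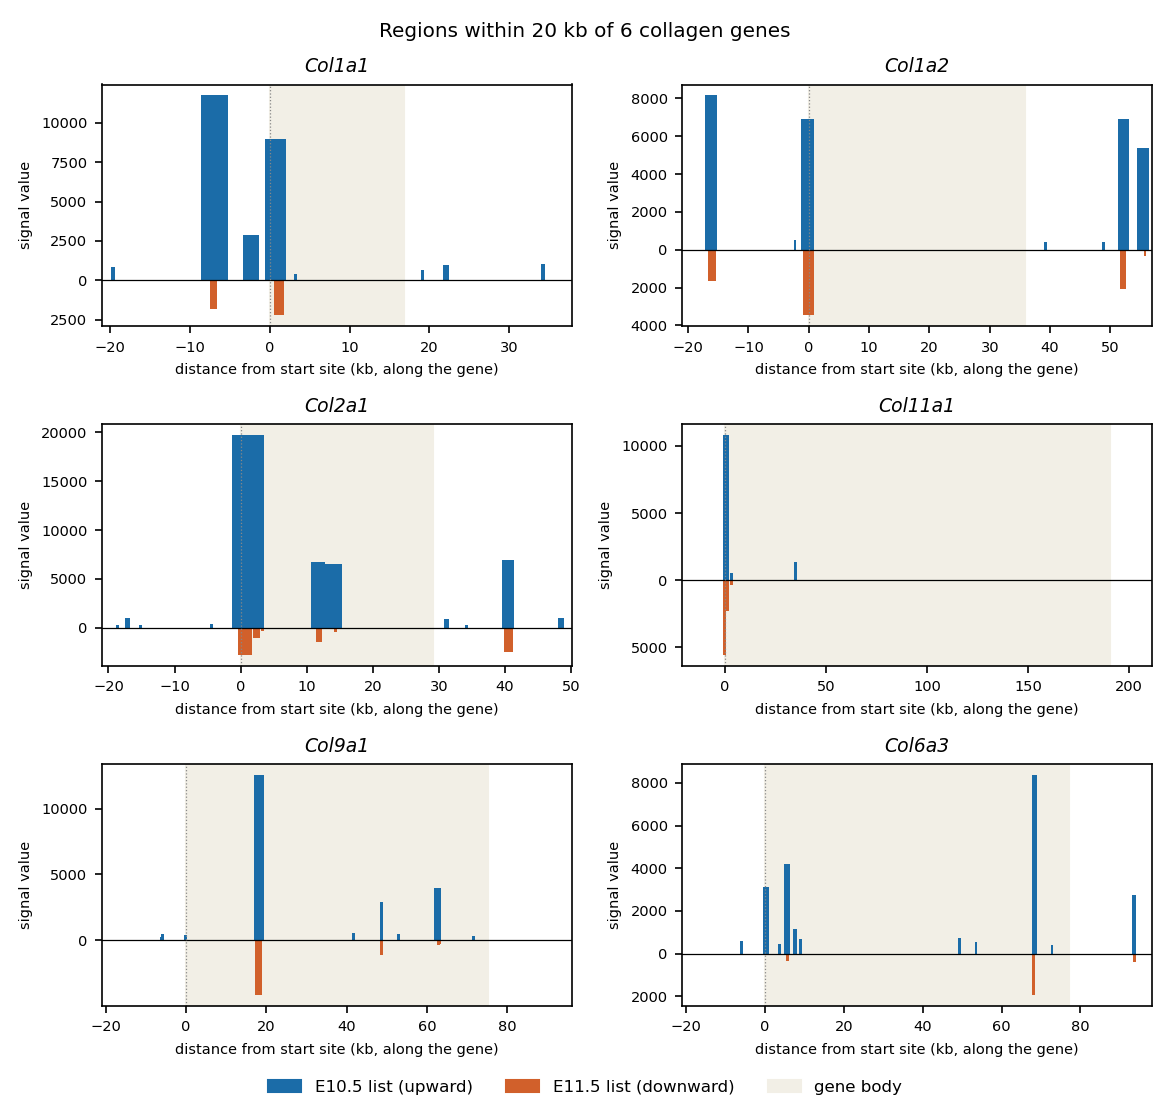
Regions in the windows of 6 collagen genes, drawn to scale along the gene (horizontal axis, distance from the start site in kb) with the authors' signal value as height, E10.5 upward and E11.5 downward; the shaded span is the gene and the vertical scale differs between panels. The strongest E10.5 region lies upstream of the start in Col1a1 and Col1a2, over it in Col2a1 and Col11a1, and inside the gene in Col9a1 and Col6a3.

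Types III and V collagen are co-assembled with type I in soft connective tissue. Col3a1 had 2 promoter regions in each list, the stronger with a signal of 1421 (rank 34681) at E10.5 and 579 (rank 21064) at E11.5. Its neighbour Col5a2 had 4905 (rank 10004) and 2188 (rank 9625). The Col5a1 region was far stronger, at 16731 (rank 297) and 3792.5 (rank 5020), and spanned chr2:27885256-27889796. Col5a3 was the weakest of the class, at 431 (rank 71567) and 403 (rank 25735), and its percentile was slightly higher at E11.5, 31.2 against 28.0.

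The promoter sequences of 3 fibrillar genes show how unlike they are in base composition, although each had a promoter region in both lists. They are RefSeq sequences of GRCm38.p6 on the gene's strand, 5′ to 3′, from 250 bases before to 50 bases after a start site. They lie at chr6:4505368-4505667 (plus strand) for Col1a2, chr1:45311288-45311587 (plus) for Col3a1 and chr2:27886175-27886474 (plus) for Col5a1. Capitals mark matches, on either strand, to 5 short motifs. They are TATAAA, which is the core of the TATA box, CCAAT, which names its own box, GGGCGG for the GC box, AACAAT for a SOX-type site and TGTGGT for a RUNX-type site.
Col1a2: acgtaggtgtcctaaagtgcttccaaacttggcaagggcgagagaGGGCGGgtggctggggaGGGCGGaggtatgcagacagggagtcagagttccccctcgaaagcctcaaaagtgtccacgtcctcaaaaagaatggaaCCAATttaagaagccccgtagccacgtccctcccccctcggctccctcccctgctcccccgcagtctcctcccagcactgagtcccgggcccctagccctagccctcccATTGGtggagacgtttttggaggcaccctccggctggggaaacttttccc
Col3a1: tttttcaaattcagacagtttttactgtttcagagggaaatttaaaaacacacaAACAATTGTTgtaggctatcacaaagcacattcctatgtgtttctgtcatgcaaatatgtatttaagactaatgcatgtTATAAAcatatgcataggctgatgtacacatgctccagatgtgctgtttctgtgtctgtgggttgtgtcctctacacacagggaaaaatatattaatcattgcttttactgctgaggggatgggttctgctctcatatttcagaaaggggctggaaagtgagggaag
Col5a1: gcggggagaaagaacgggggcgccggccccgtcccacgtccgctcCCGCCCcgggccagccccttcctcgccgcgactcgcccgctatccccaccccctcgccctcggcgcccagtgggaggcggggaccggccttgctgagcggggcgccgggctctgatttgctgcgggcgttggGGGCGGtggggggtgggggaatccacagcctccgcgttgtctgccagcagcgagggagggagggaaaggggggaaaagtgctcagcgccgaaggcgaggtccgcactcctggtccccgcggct

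Col5a1 held 34 CpG dinucleotides in its 300 bases, Col1a2 held 13 and Col3a1 none. Col3a1 was the only collagen sequence with SOX-type letters, 2 overlapping matches on opposite strands, and it held 1 TATA box match. A match is a description of the letters and does not show that a factor binds there.

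Type IV collagens form the network of basement membranes, and their genes lie in head-to-head pairs. The start sites of Col4a1 and Col4a2 are 84 bp apart, and a shared region at chr8:11311193-11314904 covered both, with a signal of 13755 (rank 626) at E10.5 and 3654 (rank 5374) at E11.5. Col4a3 and Col4a4, whose chains are found in kidney and lung, have starts 113 bp apart. They shared a weak region of 562 (rank 62606) at E10.5 and 353 (rank 27690) at E11.5. The starts of Col4a5 and Col4a6 on the X chromosome are 1275 bp apart and had a separate region each. Col4a5 had 1361 (rank 35871) and 1478 (rank 12654), and Col4a6 had 288 (rank 85843) and 228 (rank 34919). Across these head-to-head pairs, the ranks at E10.5 ran from 626 to 85843.

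The remaining network collagens are short-chain types. Col8a1, found in the lining of vessels and in the cornea, had a promoter signal of 1735 that was 406 at E11.5. Col8a2 had one of 1137 in the earlier list only, although a region at -8.1 kb had 8029.5 there and 1416 in the later list. Col10a1, the marker of hypertrophic cartilage, had no region of any kind within 20 kb in either list. In this class the region shared by Col4a1 and Col4a2 was the strongest promoter region in each list, and only Col10a1 had none in either. The Col4a1 and Col10a1 promoters are shown, at chr8:11312777-11313076 (minus strand) and chr10:34389731-34390030 (plus strand), with capitals as above.
Col4a1: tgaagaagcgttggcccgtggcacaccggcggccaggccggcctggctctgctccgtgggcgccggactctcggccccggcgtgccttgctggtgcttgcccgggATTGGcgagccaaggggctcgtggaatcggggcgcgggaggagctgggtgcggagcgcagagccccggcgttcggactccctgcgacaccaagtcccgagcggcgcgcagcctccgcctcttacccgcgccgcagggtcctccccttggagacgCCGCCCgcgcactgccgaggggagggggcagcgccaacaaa
Col10a1: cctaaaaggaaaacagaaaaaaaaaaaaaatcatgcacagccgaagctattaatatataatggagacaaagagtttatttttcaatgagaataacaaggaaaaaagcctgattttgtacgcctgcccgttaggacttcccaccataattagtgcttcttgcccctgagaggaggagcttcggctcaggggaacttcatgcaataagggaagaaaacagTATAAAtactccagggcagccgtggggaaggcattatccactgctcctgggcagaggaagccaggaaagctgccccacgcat

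Col4a1 held 37 CpG dinucleotides, the most of the 38 collagen sequences, and Col10a1 held 6 and 1 TATA box match.

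FACIT collagens decorate fibrils. Of 9, the earlier list held a promoter region for 7 (77.8%) and the later list for 6 (66.7%). Over all protein-coding genes the shares were 66.3% and 59.9%, and among those of at least 10 kb 76.4% and 70.1%. Type IX chains coat the fibrils of cartilage, and Col9a1 has an upstream start, used in cartilage, and a downstream start that gives a shorter chain. The outer start had only a weak region of 408 (rank 73526) at E10.5 and none at E11.5. The downstream start lies 17.6 kb into the gene, and the region over it, chr1:24194478-24197074, had a signal of 12530 (rank 890) at E10.5 and 4137 (rank 4292) at E11.5. It was the strongest intragenic region of the family in both lists. Both starts are shown, at chr1:24177360-24177659 and chr1:24194953-24195252 on the plus strand, with capitals as above.
Col9a1 upstream start: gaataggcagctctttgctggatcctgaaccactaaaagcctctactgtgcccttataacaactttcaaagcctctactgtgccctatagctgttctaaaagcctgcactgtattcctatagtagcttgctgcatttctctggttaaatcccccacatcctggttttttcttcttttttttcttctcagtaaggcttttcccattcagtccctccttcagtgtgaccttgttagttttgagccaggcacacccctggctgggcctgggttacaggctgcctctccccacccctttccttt
Col9a1 downstream start: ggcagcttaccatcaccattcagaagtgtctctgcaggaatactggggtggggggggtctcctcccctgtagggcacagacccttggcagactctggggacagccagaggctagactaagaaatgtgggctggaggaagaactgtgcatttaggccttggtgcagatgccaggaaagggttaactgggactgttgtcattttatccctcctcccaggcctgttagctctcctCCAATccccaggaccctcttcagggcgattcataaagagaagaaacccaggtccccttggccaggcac

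CpG dinucleotides were rare at both starts, with 0 at the upstream and 1 at the downstream start. The starts of the RefSeq promoter table were also used in place of the outer end, which was kept only for genes without an entry. Collagen genes with a promoter region then numbered 38 in the earlier and 32 in the later list, Col9a1 being the added gene. The other type IX genes were weaker, at 3208 and 721 for Col9a3 and 2514 and 833 for Col9a2. Col12a1 and Col14a1, which bind type I fibrils in tendon and skin, had 3890 and 3843 at E10.5, and 499.86 and 304 at E11.5. The summits of these Col14a1 regions lay at -1114 and -1126 bp, outside the 1 kb window that both regions overlapped. The E10.5 region covered the start while the E11.5 region did not. A second, weaker E11.5 region of Col14a1, with a signal of 220, had its summit at 589 bp. Col16a1 had 6793 and 1522, and Col19a1 had 3441.5 and 2141. Col20a1 and Col22a1 had no promoter region, though Col22a1 held 10 intragenic regions in the earlier and 3 in the later list.

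Type VI collagens form beaded filaments around cells. The chains of the common form are encoded by Col6a1, Col6a2 and Col6a3. Their promoter regions had 2307, 4288 and 3104 at E10.5. At E11.5 the values were 306 and 1377 for Col6a1 and Col6a2, and Col6a3 had none. Stronger regions lay away from the starts. The one at -6.9 kb from Col6a1 had 10179 (rank 1787) at E10.5 and 2215.5 (rank 9533) at E11.5, and the one 68.1 kb into Col6a3 had 8355 (rank 3276) and 1929 (rank 10640). Of the alternative chains Col6a4, Col6a5 and Col6a6, only Col6a6 had a promoter region, of 848 at E10.5 and none at E11.5. Col28a1, a related gene, had none.

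Col7a1 and Col17a1, collagens of skin attachment, had no promoter region at E11.5. With the E10.5 list cut to the E11.5 number, by signal or by −log10 p, they had none at E10.5 either. Col7a1, the anchoring fibril of the dermal junction, had 1039 at E10.5 and none at E11.5. Col17a1, a transmembrane collagen of hemidesmosomes in keratinocytes, had 259 (rank 89762) at E10.5, the lowest of the 38 genes, and none at E11.5. Its promoter lies at chr19:47691993-47692292 on the minus strand and held 2 TATA box matches, the most among the 38 collagen sequences, with 5 CpG dinucleotides.
Col17a1: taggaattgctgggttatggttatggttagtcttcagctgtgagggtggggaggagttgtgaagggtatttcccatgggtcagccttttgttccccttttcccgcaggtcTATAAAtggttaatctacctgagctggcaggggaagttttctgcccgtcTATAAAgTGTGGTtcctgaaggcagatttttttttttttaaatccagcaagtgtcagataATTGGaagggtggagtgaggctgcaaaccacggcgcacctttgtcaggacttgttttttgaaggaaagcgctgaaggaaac

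The promoter regions of the other transmembrane collagens lay at percentiles from 93.2 to 98.5 at E10.5 and from 50.2 to 84.6 at E11.5. Col23a1 had 10732 (rank 1524) and 2814 (rank 7607), Col25a1 had 8248 (rank 3387) and 3495 (rank 5768), and Col13a1 had 6169 (rank 6745) and 729 (rank 18620). Col18a1, whose product in basement membranes releases endostatin, had 9677 (rank 2092) at its outer start and 2984 (rank 7124). Its second table start, 52.8 kb downstream, had 923 (rank 46755) at E10.5 and none at E11.5. An intragenic region 35.8 kb into Col18a1 lay at percentile 96.9 of the earlier list (8564), and its counterpart at percentile 26.5 of the later list (358). The related multiplexin gene Col15a1 had 2377.5 and 458, and the unclassed Col26a1 had 9411 (rank 2294) and 646 (rank 19859).

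CpG counts of the promoter sequences, available for 38 starts of 35 genes, were higher where a region was listed in both stages. The median count per 300 bases was 14 for the 25 sequences with a region in both lists, 9 for the 8 with one at E10.5 only, and 5 for the 5 with none. Over all protein-coding genes with a sequence the same medians were 21, 6 and 2, so the collagen sequences followed the order of the genome with less spread. A GC box match was found in 60.5% of collagen sequences and 46.2% of all sequences. For the other motifs the shares were 34.2% and 38.2% (CCAAT box), 13.2% and 12.6% (TATA box), 7.89% and 15.0% (RUNX-type), and 2.63% and 9.05% (SOX-type).

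**Figure D3:**
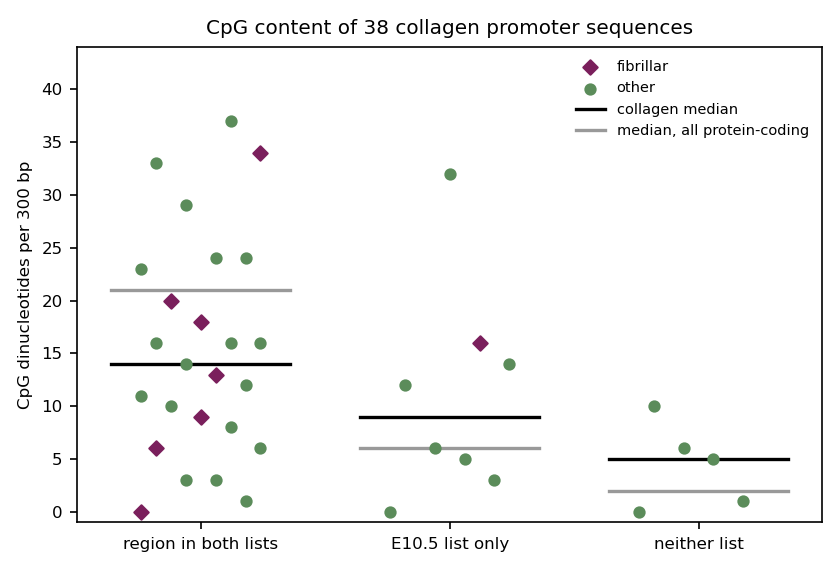
CpG dinucleotides per 300 bp (vertical axis) in the 38 collagen promoter sequences, by whether a region lay within 1 kb of that start in both lists, the E10.5 list only or neither list; each point is a sequence, and bars are medians of the collagens (black) and of all protein-coding genes (grey). The collagen medians are 14, 9 and 5, and counts of 0 occur in each class.

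Inside the genes, the longer E10.5 list held more regions than the E11.5 list. The collagen windows held 38 collagen promoter regions, 304 intragenic regions, 82 flanking regions and 21 promoter regions of other genes at E10.5. The numbers at E11.5 were 33, 74, 20 and 17. With the E10.5 list cut to the E11.5 number of regions, its intragenic regions numbered 99 by signal or 106 by −log10 p, against the 74. The strongest of these other promoters at E11.5 was that of Mios near Col28a1, with 5694 (rank 1993), followed by those of Slc19a1 near Col18a1 (4628), Phykpl near Col23a1 (4491), Ogfr near Col9a3 (4297) and the pair Rxrb and Slc39a7 near Col11a2 (3749). The strongest flanking region at E11.5 that was no promoter lay 38.3 kb downstream of the Col7a1 start, with 4600.5 (rank 3432). At least 1 intragenic region was found in 38 of 44 genes at E10.5 (86.4%, interval 73.3 to 93.6%) and in 28 of 44 at E11.5 (63.6%, interval 48.9 to 76.2%), against 45.2% and 28.2% of all protein-coding genes. Among genes of at least 10 kb the shares were 61.4% and 38.8%. Per 100 kb of gene, collagens held 5.58 intragenic regions in the earlier and 1.36 in the later list, beside 4.40 and 1.25 over all protein-coding genes.

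Gene length went with the number of intragenic regions, with a Spearman rho across the 44 genes of 0.54 for the earlier and 0.47 for the later list. The genes share their libraries and are not independent, so this is a description. Col23a1 held the most, 41 in the earlier and 8 in the later list, followed by Col25a1 with 32 and 3 and Col26a1 with 23 and 7. Col13a1 and Col19a1 each held 16 at E10.5, with 1 and 4 at E11.5. Fibrillar genes are shorter, at a median of 45.1 kb against 114 kb for the others, and held 45 intragenic regions in the earlier and 14 in the later list. Their density was 4.30 per 100 kb against 5.89 for other collagens at E10.5, and 1.34 against 1.36 at E11.5.

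**Figure D4:**
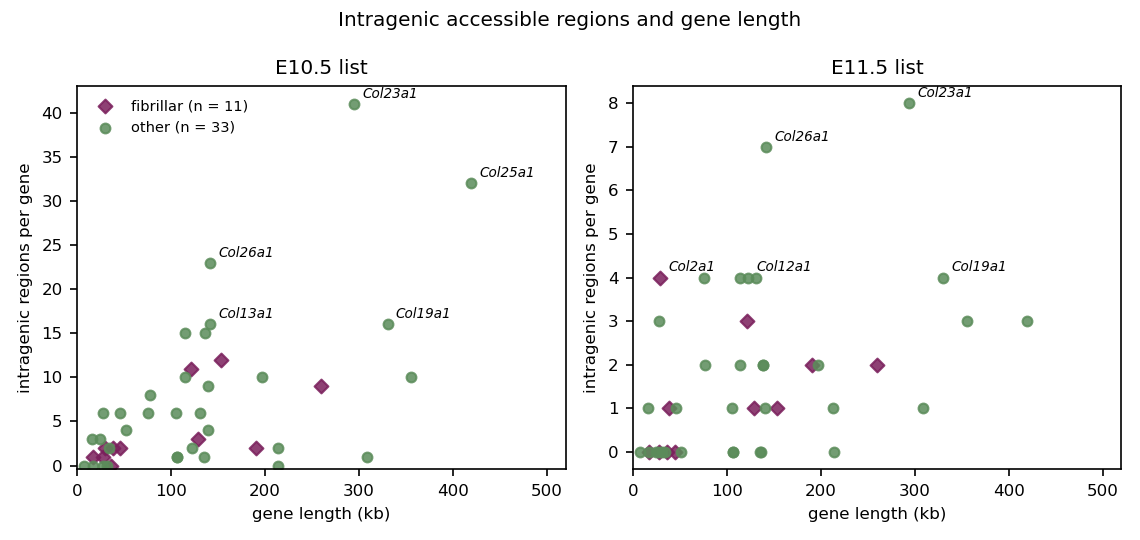
Intragenic regions per gene (vertical axis) against gene length in kb (horizontal axis) for 11 fibrillar and 33 other collagen genes in the E10.5 list (left) and the E11.5 list (right, with its own vertical scale). Col23a1 has the highest count in both panels, 41 and 8, and most fibrillar genes lie at the lower left.

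Most E11.5 regions of the collagen windows touched a region of the E10.5 list. Of 144, 141 overlapped an E10.5 region by at least 1 bp (97.9%, interval 94.1 to 99.3%), against 91.8% of the whole E11.5 list. In the other direction 130 of 445 had a counterpart in the later list (29.2%, interval 25.2 to 33.6%), against 32.3% of the whole list, which lies within that interval. Both shares depend on the rule of overlap and on list length. They were 44.4% and 14.4% under 50% reciprocal overlap, and 74.3% and 24.3% with summits within 100 bp. With the E10.5 list cut to the E11.5 number they were 78.5% and 59.4% by signal, and 81.9% and 60.9% by −log10 p. Shares of the whole lists under these alternatives were not computed, so these values describe the collagen windows alone. The 3 E11.5 regions without overlap were weak and intragenic, with signals of 267 and 209 in Col18a1 and 355 in Col4a6. The E10.5 regions with a counterpart had a median signal of 3638 and those without one had 609.7. Over the whole E10.5 list the split was similar, at 3130.9 and 543.23. The strongest E10.5 region without a counterpart lay 100.2 kb into Col23a1, with a signal of 6611.5 (rank 5826).

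Promoter regions were kept more often than intragenic ones, in the collagens as in the whole list. Of the 38 collagen promoter regions at E10.5, 30 overlapped an E11.5 region (78.9%, interval 63.7 to 88.9%), against 86.0% of all promoter regions. Of the 304 intragenic regions, 62 did (20.4%, interval 16.2 to 25.3%), against 22.4%. For fibrillar genes the shares were 91.7% of 12 promoter regions and 22.2% of 45 intragenic regions, and for other collagens 73.1% of 26 and 20.1% of 259. All 33 collagen promoter regions at E11.5 and 71 of 74 intragenic ones overlapped an E10.5 region.

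**Figure D5:**
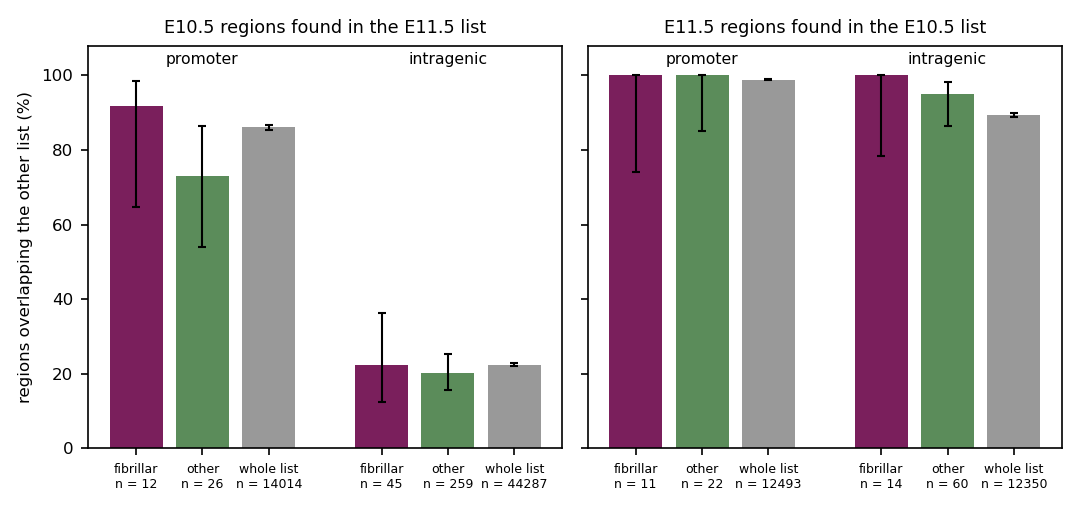
Share of regions that overlap the other list by at least 1 bp (vertical axis, percent) for promoter and intragenic regions of fibrillar collagens, other collagens and the whole list; E10.5 regions are on the left and E11.5 regions on the right, and error bars are 95% Wilson intervals, which cover counting error only. At E10.5, promoter bars stand between 73.1% and 91.7% and intragenic bars between 20.1% and 22.4%.

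Collagen chains are hydroxylated, folded by chaperones, secreted, trimmed of their propeptides and cross-linked before cells bind them. The genes for these steps mostly had promoter regions at both stages. Of 42 located, the earlier list held a promoter region for 38 and the later list for 37, where 66.3% and 59.9% of all genes had one. The median percentile of the strongest promoter region was 95.1 and 82.0, beside 84.9 and 66.2 for the collagens. Over all protein-coding genes with a promoter region it was 89.4 and 81.7. P3h4 and Fkbp10 had the same promoter region in each list, which was counted for both. By step, the numbers in the earlier and later list were 16 and 16 of 18 for modification and folding, 3 and 3 of 4 for secretion, 7 and 7 of 8 for propeptide removal, 5 and 5 of 5 for cross-linking, and 7 and 6 of 7 for receptors.

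Serpinh1, the collagen chaperone HSP47, had a promoter signal of 11031 (rank 1391) at E10.5 and 2075 (rank 10048) at E11.5. P4hb, a subunit of prolyl hydroxylase, had 10542 (rank 1606) and 5948 (rank 1745). Lox, which starts cross-linking by oxidising lysines, had 2103 (rank 25421) and 993 (rank 15822). Among receptors, the integrin subunit gene Itgb1 had 8405 (rank 3213) and 8984 (rank 369), Itga11 had 7479 (rank 4340) and 309 (rank 29717), and Itga10 had 384 (rank 75590) and none. Plod2, Fkbp14, Sec24d and Tll2 had no promoter region in either list at the outer gene end. That end was the only start searched for the processing and receptor genes, and other starts of them were not tried.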

How the data were processed

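ATAC-seq was carried out on 4 samples, 2 at E10.5 and 2 at E11.5, grouped by their titles. Per the labels' protocols, limbs were dissected, dissociated with trypsin, fixed in paraformaldehyde and tagged with Tn5. The submitters' processing notes name cutadapt, Bowtie2, SAMtools, deepTools and Genrich, without roles or versions, and the build mm10. How the replicates were joined, and any shift of read ends for Tn5, are not given in the sources used here.

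The authors deposited 1 narrowPeak list per stage, on mm10 per the file headers. The deposited signal value of a peak behaves as a total over its width, from 200 upward. The deposited score equals signal divided by width, times 1000 and capped, in 100% of peaks, and was not used further. Each deposited −log10 p-value belongs to 1 peak and served for ranking and filtering, and the q-value is -1 throughout. Depth per sample is unknown, so no interval for a signal was possible.

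Regions on chromosomes 1 to 19, X and Y were used. Gene positions came from a RefSeq table of GRCm38.p6, which has mm10 coordinates. Strand came from the RefSeq promoter table (35 collagen genes) or, by symbol, from GENCODE M1 (9 genes), whose coordinates were not used, and 21536 of 21887 protein-coding genes received one. The start site is the outer gene end by strand. Promoter regions overlap the 1 kb on either side of the start site, intragenic regions overlap only the gene, and flanking regions lie within 20 kb. Exon and intron positions in mm10 were not used here. Promoter sequences were matched by gene identifier for 35 of 44 members. Col1a1, Col2a1, Col4a3, Col5a2, Col9a3, Col12a1, Col14a1, Col22a1 and Col26a1 have no entry.

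Shares carry 95% Wilson intervals. These measure counting error alone, with adjacent regions taken as independent. No test was run. Calculations used Python 3.11.15, pandas 2.3.3 and numpy 2.4.6, and the counting steps were tested on simulated lists. The alternatives tried were a minimum −log10 p of 5, cutting the E10.5 list to the E11.5 number, other promoter and window sizes, other rules of overlap, and table start sites. Members and lists (classes, processing genes and cell type markers) were chosen with earlier results of these data known. The rule for naming took all fibrillar genes, the head-to-head type IV pairs, members with a promoter region in 1 list or none, the 5 with the most intragenic regions, the 10 strongest window regions of each list, and processing genes with a promoter region in 1 list or none. The remaining named genes were added after their values were seen, to account for every member.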

Additional observations from a re-analysis of the deposited data

How the results depend on the processing

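No paired analysis was possible because the replicates of a stage are merged in 1 list, which also leaves no replicate to omit. Of 86 values under 13 alternative settings, 66 stayed within 1.5 times the main count or within the main interval, and 20 moved. With a minimum −log10 p of 5, E11.5 kept 19 collagen genes with a promoter region, 10 of them not fibrillar, with 69 regions in the windows and 25 intragenic, and E10.5 kept 269 and 168, of which 24.2% of the former overlapped E11.5. Cutting the E10.5 list to the E11.5 number by signal left 170 window and 99 intragenic regions, and overlaps of 59.4% (E10.5) and 78.5% (E11.5). Cutting it by −log10 p left 174 and 106, overlaps of 60.9% and 81.9%, and 17 promoters of non-fibrillar genes at E10.5. Under 50% reciprocal overlap the shares were 14.4% and 44.4%, and with summits within 100 bp they were 24.3% and 74.3%. The cause of these moves was not tested beyond the fewer regions or stricter overlap that each setting builds in. Every collagen gene had a strand, so the setting for genes without one gave no separate value. Depth is unknown for both lists, and it limits what an absent region can show.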

Other observations

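The X chromosome stood apart in the size of its lists. It had 62.2 E11.5 regions for every 100 E10.5 regions, where the autosomes ran from 33.3 to 40.8. Col4a5, 1 of the 2 collagen genes whose promoter percentile was higher at E11.5, lies on the X chromosome. The other of the 2, Col5a3, lies on chromosome 9, and Col4a6, also on the X chromosome, had a lower percentile at E11.5 (6.67) than at E10.5 (13.6).

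Along the genes, the 304 intragenic collagen regions at E10.5 numbered 59, 70, 62, 63 and 50 in the 5 equal parts of the gene from its start. The last part held 16.4% of them, the lowest share, where over all protein-coding genes of at least 10 kb it held 21.4%, the highest. At E11.5 the part nearest the start held 22 of 74 (29.7%), beside 23.8% over all protein-coding genes of at least 10 kb, and the others held 10, 14, 14 and 14.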
